A study of Mus musculus with 10 samples.

Results

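The 10 genes described here mark fat cells and were followed in gastrocnemius muscle of D257A and WT mice: Adipoq, Lep, Retn, Cfd, Plin1, Cidec, Fabp4, Pparg, Lipe and Pnpla2. Members were taken by name, as every probe set that names 1 of these 10 symbols and no other gene. Of the 45101 probe sets on each array, 13 met this rule, and they stood for 8 of the 10 genes. Cfd and Plin1 had no probe set named here and were not analysed. Probe sets whose mean log2 signal over all 10 arrays was below the median of the array were set aside as dim. Of the members' probe sets 11 of 13 were tested, and each of the 8 genes kept at least 1 probe set. The 2 probe sets set aside were a second one each for Lipe and Pnpla2.

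The mice were males of 13 months, 5 homozygous for the Polg D257A knock-in and 5 WT for Polg, with 1 array per mouse. D257A is a point mutation, present in every cell, that removes the proofreading of the mitochondrial DNA polymerase gamma. Both genotypes came from a mixed 129Sv/ICR/B6 stock that was backcrossed to C57Bl/6J for 4 generations. The question addressed was whether transcripts of fat cells within the muscle differed between the genotypes, and whether they did so by a common factor in each mouse or gene by gene.

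White fat cells lie between the fibres and bundles of a muscle, and a dissected muscle brings some of them along. They store triglyceride in a single large droplet, release fatty acids from it through lipases, and secrete hormones such as adiponectin, leptin and resistin. Some of the genes they use, above all the lipases, are also transcribed by muscle fibres, and others by capillary endothelium and macrophages. In RNA from a whole muscle, fewer cells of a type and less RNA per cell cannot be told apart.

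All values are signals per probe set, scaled so that every array has the same trimmed mean. All 10 muscle fibre markers were tested and were brighter than at least 98.2% of the probe sets, while 1 of 5 cochlea markers reached the level of the test, which bears on a line of the protocol that names cochlea. Polg, whose level does not check the labels since the mutation alters the protein, read 858 ± 108 in D257A and 813 ± 168 in WT mice (SD, n = 5). WT mouse 1-13M stood apart: across the array 1662 probe sets were called between the genotypes with it and 3428 without it. Results on the members are therefore given with and without this mouse where it changed them.

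Of the 8 tested member genes, 1 was called higher in D257A muscle at an adjusted p under 0.05 (limma, adjusted by Benjamini-Hochberg over 22518 probe sets), Retn, against 3.71% of all 11216 genes tested. By limma 0 of 8 were called lower, against 3.52% of all genes tested, although 2 of the 8, Lep and Lipe, were lower at an unadjusted p under 0.05, and the methods' t-test also called 0. Over all tested genes the calls were 416 higher and 395 lower, a split that became 840 and 187 with each array centred on its median and 179 and 428 without any scaling. The log2 difference was above 0 for 4 members and below 0 for the other 4, with a median of 0.02, beside -0.01 over all tested genes. The genotypes did not overlap for 1 member, Retn, against 7.4% of all genes tested.

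**Figure D1:**
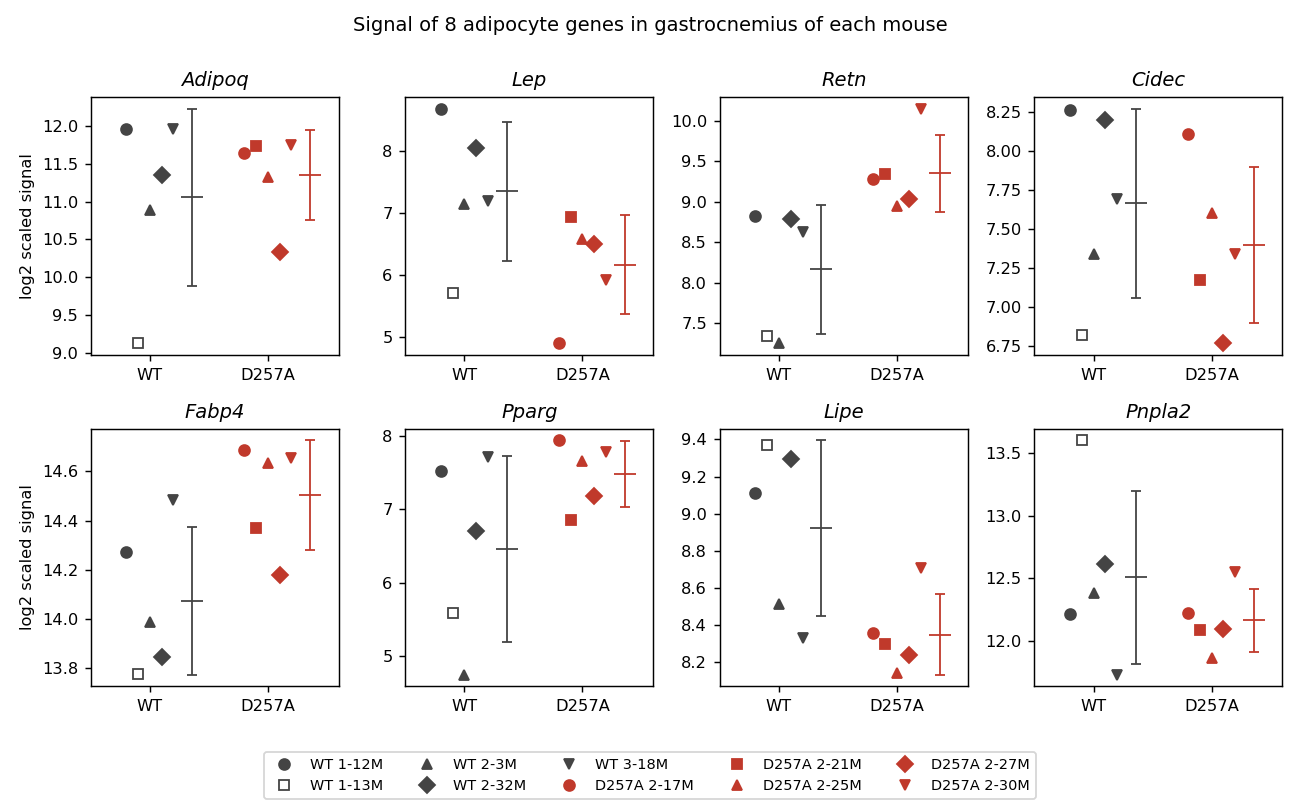
Log2 scaled signal (y axis) of the brightest probe set of 8 adipocyte genes in each of 5 WT (grey) and 5 D257A (red) mice, each mouse with its own symbol and WT mouse 1-13M as an open square, with the mean and SD of the log2 values of each genotype beside the points. The D257A mice lie above every WT mouse for Retn alone, and WT mouse 1-13M is the lowest WT mouse for Adipoq, Lep, Cidec and Fabp4 and the highest for Lipe and Pnpla2.

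Adiponectin, encoded by Adipoq, is a hormone that fat cells secrete and that acts on muscle and liver. In the D257A mice its signal was 3192 in mouse 2-17M, 3418 in 2-21M, 2566 in 2-25M, 1291 in 2-27M and 3431 in 2-30M. In the WT mice it was 3984 in mouse 1-12M, 559 in 1-13M, 1900 in 2-3M, 2622 in 2-32M and 3979 in 3-18M. The 2 highest signals and the lowest were all WT, so the genotypes overlapped over the whole range of the D257A mice. Among WT mice the highest signal was 7.13 times the lowest, and among D257A mice 2.66 times. The log2 difference, D257A minus WT, was 0.30 (SE 0.45, adjusted p = 0.742), and it was -0.18 without WT mouse 1-13M (adjusted p = 0.696). Adipoq therefore showed no difference beyond the spread between mice, and its sign rested on 1 WT mouse.

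Leptin, the product of Lep, is the hormone through which fat stores inform the brain. Its signal in D257A muscle was 29.8 in mouse 2-17M, 122 in 2-21M, 95.3 in 2-25M, 90.2 in 2-27M and 60.8 in 2-30M. In WT muscle it was 408 in mouse 1-12M, 52.3 in 1-13M, 140 in 2-3M, 263 in 2-32M and 146 in 3-18M. Of the 5 WT mice, 4 lay above every D257A mouse, and the remaining one, 1-13M, lay below 4 of the 5 D257A mice. The log2 difference was -1.18 (SE 0.50, adjusted p = 0.165), which did not pass. Of these signals 3 lay below the level at which probe sets were kept for the test, so no fold is given, and with 32 added to every signal the difference was -0.92. Without WT mouse 1-13M it was -1.59 and passed (adjusted p = 0.0174). It also passed when arrays were weighted by their agreement with the rest (adjusted p = 0.0271).

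Resistin, the product of Retn, is a secreted protein made by fat cells in the mouse, and it was the member that rose. Its signal in D257A muscle was 619 in mouse 2-17M, 650 in 2-21M, 493 in 2-25M, 522 in 2-27M and 1133 in 2-30M. In WT muscle it was 452 in mouse 1-12M, 162 in 1-13M, 152 in 2-3M, 441 in 2-32M and 394 in 3-18M. Every D257A mouse lay above every WT mouse, by a small margin between 2-25M and WT mouse 1-12M. The signal was 2.27-fold higher in D257A mice, a log2 difference of 1.18 (SE 0.33, adjusted p = 0.0452). The 2-sided exact permutation test over mice gave p = 0.00794, the smallest that 5 against 5 mice allow.

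The call for Retn lay close to the threshold. It was lost under 11 of 23 alternatives, with adjusted p up to 0.148, while the log2 difference stayed between 0.96 and 1.35. Leaving out any 1 D257A mouse, or WT mouse 2-3M, ended it (adjusted p from 0.059 without D257A mouse 2-27M to 0.108 without WT mouse 2-3M). It held without WT mouse 1-13M, at 0.98 (adjusted p = 0.0438). Among the mice whose number starts with 2, all 5 D257A mice and 2 WT mice, the difference was 1.33 (adjusted p = 0.0589).

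The promoters of these 3 hormone genes are shown since the genes, which encode secreted products of the same cell type, had log2 differences from -1.18 to 1.18. The windows are the 120 bases before the transcription start in RefSeq GRCm38.p6, on the plus strand, at chr6:29060101-29060220 for Lep, chr8:3655650-3655769 for Retn and chr16:23146416-23146535 for Adipoq. Capitals mark a match to the C/EBP motif TTGCNNAA, read on both strands.
Lep: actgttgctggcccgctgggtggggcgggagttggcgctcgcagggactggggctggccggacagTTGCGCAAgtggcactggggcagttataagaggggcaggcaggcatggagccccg
Retn: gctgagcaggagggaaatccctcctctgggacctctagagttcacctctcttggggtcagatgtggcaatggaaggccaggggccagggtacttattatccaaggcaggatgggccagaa
Adipoq: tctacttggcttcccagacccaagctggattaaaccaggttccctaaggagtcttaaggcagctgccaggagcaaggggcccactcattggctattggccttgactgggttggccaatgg

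The Lep window held the C/EBP motif at positions -55 to -48 from the start. Neither the Retn nor the Adipoq window held these letters or the nuclear receptor half-site AGGTCA, searched on both strands. Of 32851 RefSeq promoter windows from 250 bases before to 50 bases after a start, 10.8% held the C/EBP motif and 16.3% the half-site. Among the 7 member genes with such a window, which had 11 windows in all, the C/EBP motif was also found at -198 to -191 for Cidec and in 1 window of Pparg, and the half-site in 2 other windows of Pparg. A match describes the letters and no binding was measured.

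Cidec encodes a protein of the lipid droplet surface that lets small droplets fuse into large ones. Its signal was 275, 144, 194, 109 and 162 in D257A mice 2-17M, 2-21M, 2-25M, 2-27M and 2-30M. In WT mice 1-12M, 1-13M, 2-3M, 2-32M and 3-18M it was 307, 113, 162, 294 and 207. The lowest signal of each genotype, in D257A mouse 2-27M and WT mouse 1-13M, belonged to the mouse with the lowest Adipoq signal. The genotypes overlapped, and the log2 difference of -0.27 (SE 0.30, adjusted p = 0.639) did not pass.

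Fabp4, the fatty acid binding protein of fat cells, which capillary endothelium and macrophages also make, was measured by 4 probe sets. The brightest read 26372, 21152, 25410, 18537 and 25817 in D257A mice 2-17M, 2-21M, 2-25M, 2-27M and 2-30M. It read 19797, 14024, 16263, 14716 and 22946 in WT mice 1-12M, 1-13M, 2-3M, 2-32M and 3-18M. Of the D257A mice 3 lay above every WT mouse, and of the WT mice 3 lay below every D257A mouse. The log2 difference was 0.43 (SE 0.14, adjusted p = 0.0808), and the exact permutation test gave p = 0.0397 before any adjustment.

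The call for Fabp4 went either way with the processing. It passed with array weights (adjusted p = 0.0219), after median centring of the arrays (adjusted p = 0.0304), among the mice numbered 2 (adjusted p = 0.0228) and without WT mouse 3-18M (adjusted p = 0.0253). The other 3 probe sets gave log2 differences of 0.25 (SE 0.15, adjusted p = 0.354), 0.15 (SE 0.15, adjusted p = 0.589) and -0.12 (SE 0.22, adjusted p = 0.783), and the mean of all 4 probe sets was 0.18 higher in D257A mice (adjusted p = 0.402). The probe sets of this gene thus did not give 1 size or 1 sign.

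Pparg encodes the nuclear receptor that drives fat cell formation and many of the genes described here. Its signal was 245, 116, 201, 144 and 219 in D257A mice 2-17M, 2-21M, 2-25M, 2-27M and 2-30M. In WT mice 1-12M, 1-13M, 2-3M, 2-32M and 3-18M it was 183, 48.1, 26.8, 104 and 209. WT mice 1-13M and 2-3M, the 2 lowest for Pparg, were also the 2 lowest for Retn. Both of these Pparg signals lay below the level at which probe sets were kept for the test. The log2 difference of 1.03 (SE 0.48, adjusted p = 0.217) did not pass, and with 32 added to every signal it was 0.73. Among the mice numbered 2 it was 1.75 (adjusted p = 0.0461), with 2-3M as 1 of only 2 WT mice there.

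**Figure D2:**
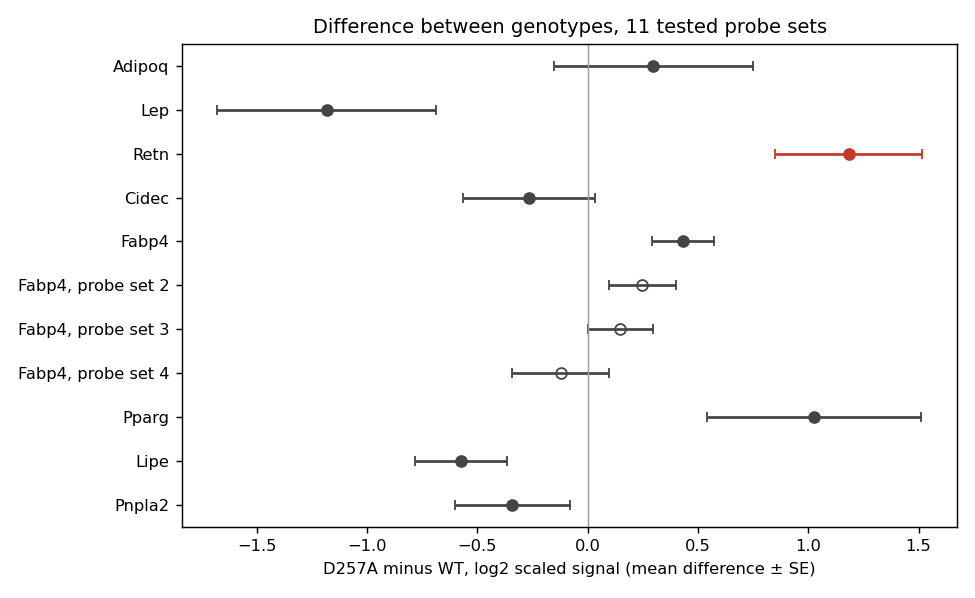
Difference between the genotypes (x axis, D257A minus WT in log2 scaled signal, with its SE) for each of the 11 tested probe sets of the adipocyte genes (y axis), with the brightest probe set of a gene filled, others open, and the called one in red. Retn at 1.18 is the called probe set, Lep at -1.18 lies as far on the other side with a larger SE, and the 4 Fabp4 probe sets run from 0.43 to -0.12.

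Lipe and Pnpla2 encode the hormone-sensitive and the adipose triglyceride lipase, which cut stored fat in fat cells and in muscle fibres. Lipe read 328, 315, 283, 302 and 419 in D257A mice 2-17M, 2-21M, 2-25M, 2-27M and 2-30M. It read 553, 661, 365, 627 and 322 in WT mice 1-12M, 1-13M, 2-3M, 2-32M and 3-18M. WT mice 1-12M, 1-13M and 2-32M lay above every D257A mouse, while 3-18M and 2-3M lay within the D257A range. The log2 difference was -0.57 (SE 0.21, adjusted p = 0.111) and passed without WT mouse 3-18M (-0.72, adjusted p = 0.0376) and with array weights (adjusted p = 0.0373).

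Pnpla2 read 4788, 4365, 3734, 4388 and 6012 in the D257A mice in the order given for Lipe. In the WT mice it read 4769, 12424, 5341, 6258 and 3404 in that order. WT mouse 1-13M lay far above all others and WT mouse 3-18M below all others, and the remaining 3 WT mice overlapped the D257A range or exceeded it slightly. The log2 difference was -0.34 (SE 0.26, adjusted p = 0.46), and it was -0.07 without WT mouse 1-13M (adjusted p = 0.813). The second probe set of each lipase read between 2.12 and 98.3 in all mice, below the level of the test.

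Since dissected muscles can hold unequal amounts of fat, which would move fat cell transcripts of a mouse by a common factor, each member was also divided by Adipoq in the same mouse. Adipoq may not be a clean reading of fat content, which was not tested. Across the 10 mice, in log2, the summed signal of the 10 muscle fibre markers had an r of 0.75 with it. This was on arrays scaled to 1 trimmed mean. WT mouse 1-13M was the lowest mouse for both, at 559 for Adipoq and 389214 for the sum. No r without this mouse was computed. The level of a ratio to Adipoq depends on the probes and only its differences between mice are read. For Lep over Adipoq the log2 ratio was -6.74, -4.81, -4.75, -3.84 and -5.82 in D257A mice 2-17M, 2-21M, 2-25M, 2-27M and 2-30M. It was -3.29, -3.42, -3.76, -3.32 and -4.77 in WT mice 1-12M, 1-13M, 2-3M, 2-32M and 3-18M. WT mouse 1-13M, among the lowest for Lep itself, had a ratio like those of the other WT mice, and 4 of 5 WT mice lay above every D257A mouse. The difference was -1.48 (exact permutation p = 0.0238, adjusted p = 0.167 over the 7 genes compared), and -1.41 without WT mouse 1-13M. With 1 mouse left out it ran from -1.82 (without D257A mouse 2-27M) to -1.09 (without D257A mouse 2-17M). The Lep signal of mouse 2-17M, 29.8, lay below the level of the test. The smallest exact p for 5 against 5 mice, 0.00794, becomes 0.0556 for 1 gene alone among 7, so the adjusted p of a lone gene could not pass here whatever its values.

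Retn over Adipoq gave log2 ratios of -2.37, -2.39, -2.38, -1.31 and -1.60 in the D257A mice and -3.14, -1.78, -3.64, -2.57 and -3.34 in the WT mice, each in the order given for Lep. WT mouse 1-13M lay above 3 D257A mice, and the other 4 WT mice lay below every D257A mouse. The difference was 0.89 (exact permutation p = 0.0556, adjusted p = 0.194). It was 1.16 without WT mouse 1-13M, where the genotypes did not overlap and the adjusted p of 0.0556 was the smallest that the exact permutation test allowed for a lone gene. With Cidec in place of Adipoq, an alternative that was not planned, it was 1.45, at the same smallest value. Cidec itself had a log2 difference of -0.27.

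The other 5 genes overlapped between the genotypes in their ratio to Adipoq. The differences were 0.73 for Pparg (exact permutation p = 0.198), 0.13 for Fabp4 (exact permutation p = 0.802) and -0.56 for Cidec (exact permutation p = 0.175). For the lipases they were -0.87 for Lipe (exact permutation p = 0.262) and -0.64 for Pnpla2 (exact permutation p = 0.603). In WT mouse 1-13M the log2 ratio to Adipoq was 0.24 for Lipe and 4.47 for Pnpla2, against at most -2.06 and 1.49 in the other WT mice.

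**Figure D3:**
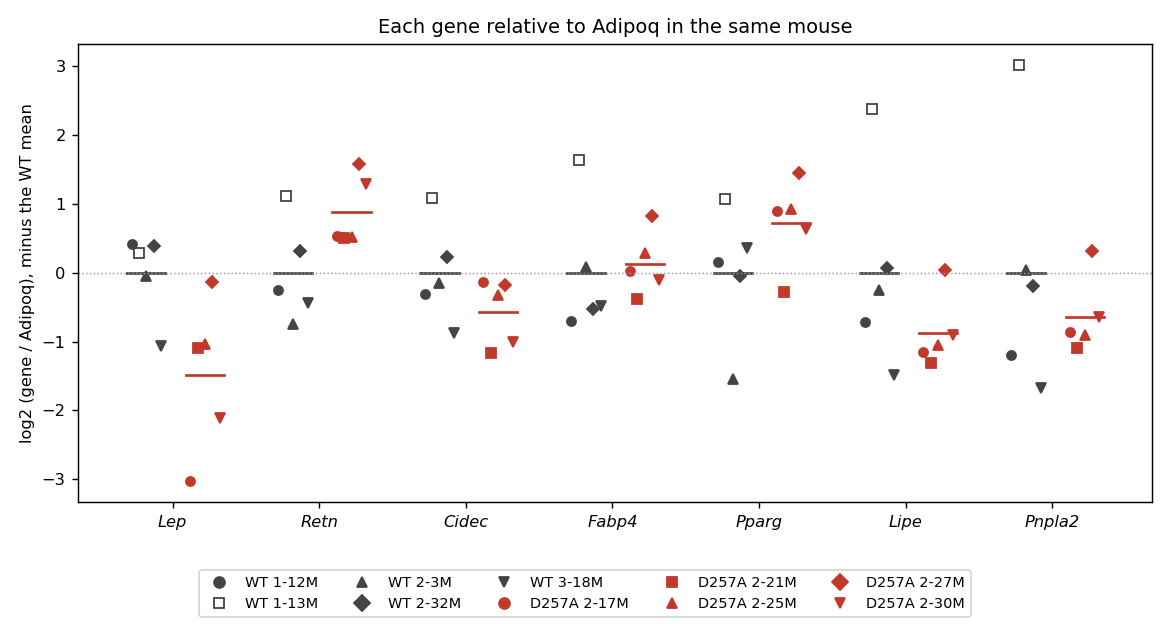
Log2 ratio of 7 adipocyte genes to Adipoq in the same mouse (y axis, with the mean of the WT mice set to 0 for each gene), for 5 WT (grey) and 5 D257A (red) mice, with bars at the genotype means and WT mouse 1-13M as an open square. Lep has its D257A mean 1.48 below and Retn 0.89 above the WT mean, and WT mouse 1-13M is the highest WT mouse for every gene but Lep.

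The members were next compared across the 10 mice, as log2 signals. With Adipoq, Pearson's r was 0.68 for Cidec (permutation p = 0.0219), 0.66 for Fabp4 (permutation p = 0.0274), 0.63 for Retn (permutation p = 0.0538) and 0.62 for Pparg (permutation p = 0.0568). Spearman's rho for the same genes was 0.60 (permutation p = 0.0738), 0.54 (permutation p = 0.114), 0.35 (permutation p = 0.331) and 0.58 (permutation p = 0.0885). After adjustment over the 7 relations with Adipoq the lowest p for r was 0.0795. With the 2 mice farthest from the median of Adipoq left out, D257A mouse 2-27M and WT mouse 1-13M, r fell to 0.23 for Cidec and 0.48 for Fabp4 but was 0.63 for Retn and 0.77 for Pparg. Without WT mouse 1-13M alone r fell for each of these genes, to 0.60 for Cidec, 0.46 for Fabp4, 0.35 for Retn and 0.48 for Pparg. The relation of Cidec with Adipoq thus rested on the 2 mice together, while that of Retn weakened without 1-13M alone.

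For Lep and the lipases the pooled r with Adipoq was lower or below 0, and differences between correlations were not tested. For Lep r was 0.35 (permutation p = 0.321) and rho 0.45 (permutation p = 0.191), and r was 0.06 without the 2 farthest mice and 0.55 with the genotype means subtracted. For Lipe r was -0.33 (permutation p = 0.361) and rho 0.02 (permutation p = 0.973), with r at 0.06 without those mice. For Pnpla2 r was -0.73 (permutation p = 0.0403, adjusted p = 0.0795) and rho -0.37 (permutation p = 0.295). Without the 2 farthest mice r was -0.33, and without WT mouse 1-13M alone -0.11, so the inverse relation of Pnpla2 with Adipoq rested on 1 mouse.

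Among the 28 pairs of members, r with the genotype means subtracted was highest for Retn and Pparg, at 0.79, and for the 2 lipases, at 0.78. These pairs were picked out after their values were seen and are described without a test. For Retn and Pparg no r with a mouse left out was computed. WT mice 1-13M and 2-3M were the lowest for both genes, with Pparg signals below the level of the test. For Lipe and Pnpla2 the pooled r was 0.78 and rho 0.84, and r was 0.73 without WT mice 1-13M and 3-18M, the 2 farthest from the median of Pnpla2, and 0.70 without 1-13M alone. Within the 7 mice numbered 2, r was 0.89 for the lipases, against 0.51 for Cidec, 0.52 for Fabp4, 0.52 for Retn, 0.40 for Pparg, 0.20 for Lipe, 0.19 for Pnpla2 and -0.25 for Lep with Adipoq. The mice numbered 1 and 3 were too few for a value of their own.

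**Figure D4:**
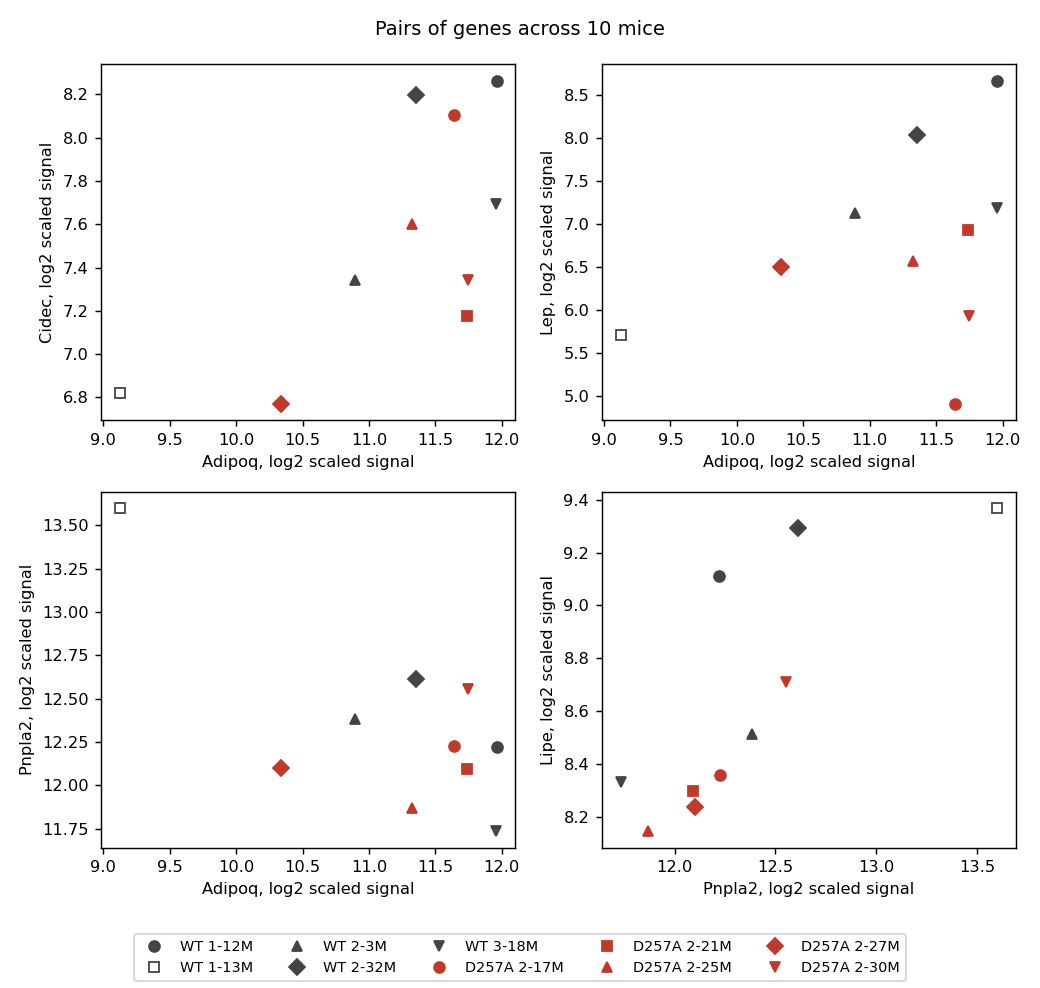
Log2 scaled signals of 4 pairs of genes (both axes), each point 1 of 5 WT (grey) or 5 D257A (red) mice, WT mouse 1-13M as an open square. Cidec rises with Adipoq mainly through the 2 mice with the lowest Adipoq, 4 of 5 WT mice lie above every D257A mouse in Lep relative to Adipoq, Pnpla2 runs against Adipoq through WT mouse 1-13M, and Lipe and Pnpla2 rise together (r = 0.78).

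The genes whose pattern was most like that of Adipoq were found by r over the 10 mice after the genotype means were subtracted. Among the 11216 tested genes the 10 nearest outside the list were Dap, Mtcl1, Aoc3, Ptpn21, Frzb, Prkar2b, Napg, Serpinb1a, Acot13 and Mapkapk5, with r from 0.97 for Dap to 0.93 for Mapkapk5. Of these, Frzb was called lower in D257A mice, at -1.19 (SE 0.34, adjusted p = 0.049), and the other 9 did not pass. The members ranked lower by the same measure, with Cidec at place 410 (r = 0.76), Fabp4 at 507 (r = 0.75), Retn at 607 (r = 0.73), Pparg at 1305 (r = 0.63) and Lep at 1911 (r = 0.55). Lipe stood at place 8028 (r = -0.29) and Pnpla2 at 10814 (r = -0.73). WT mouse 1-13M carried 54.2% of the variation of Adipoq around the genotype means, so this measure rests largely on that mouse.

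Other genes that fat cells use did not move as a block, and medians of lists are given here to set beside the -0.01 over all tested genes. Of 6 tested further adipocyte markers 0 passed by limma and by the methods' t-test, with a median of 0.19. At an unadjusted p under 0.05 were 3 of them, Plin4 and Thrsp higher and Aqp7 lower. Plin4, a droplet coat protein also made by muscle fibres, was at 0.81 (SE 0.24, adjusted p = 0.0565). Thrsp was at 0.67, Rbp4 at 0.47, Slc36a2 at -0.09, Sncg at -0.43 and Aqp7 at -0.48. Without WT mouse 1-13M 1 of the 6 was called higher, Plin4, and 1 lower, Sncg. Of 10 tested genes of lipolysis and the droplet coat, the pathway of Lipe and Pnpla2, 0 passed by limma and by the methods' t-test. The median log2 difference was -0.08, and 2 had an unadjusted p under 0.05, both lower, Mgll at -0.40 and Plin5 at -0.51. Of 3 tested markers of brown fat cells 0 passed by either, with a median of -0.32. Of these, 1 had an unadjusted p under 0.05, Prdm16, lower at -0.97 (adjusted p = 0.104).

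Genes around the triglyceride store moved in both directions. Of 8 tested genes of triglyceride synthesis 2 rose, Lpin1, a phosphatidate phosphatase, by 0.61 (SE 0.13, adjusted p = 0.0148) and Agpat3, an acyltransferase, by 0.49 (SE 0.12, adjusted p = 0.0265). Dgat2, an enzyme of the last step, was lower in D257A mice at -0.97 (SE 0.14, adjusted p = 0.00189). Dgat1, which acts at the same step, was at -0.25 (SE 0.15, adjusted p = 0.343) and did not pass. Of 9 tested genes of fatty acid synthesis 1 rose, Acaca, the acetyl-CoA carboxylase of lipogenic tissue, by 1.17 (SE 0.15, adjusted p = 0.0009). The medians of these lists were 0.12 and 0.21. Without WT mouse 1-13M 3 genes of triglyceride synthesis were higher, Gpd1 among them, and 2 lower, Gpam among them. The methods' t-test called 2 genes of triglyceride synthesis and 1 of fatty acid synthesis.

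Of 11 tested genes of fatty acid uptake and targets of the PPAR receptors 3 fell, with a median over the list of -0.20, and the methods' t-test called 1. They were Fabp3, the fatty acid binding protein of muscle, at -0.59 (SE 0.12, adjusted p = 0.0099), the glucose transporter Slc2a4 at -0.54 (SE 0.10, adjusted p = 0.00524) and lipoprotein lipase, Lpl, at -0.40 (SE 0.10, adjusted p = 0.0272). Fabp3 thus fell while the log2 difference of Fabp4 was above 0 for 3 of its 4 probe sets. A list of 14 tested transcription factors took in those of fat cell formation and also PPAR receptors and coactivators, and 2 fell. They were the receptor Ppara at -0.94 (SE 0.16, adjusted p = 0.00339) and the coactivator Ppargc1b at -0.91 (SE 0.22, adjusted p = 0.0248), and the methods' t-test called 1. The other 12 did not pass, and the median of the list was -0.07. Without WT mouse 1-13M 3 of the 14 were lower, Zfp423 among them, and 2 higher, Cebpb and Cebpd. Of 10 tested adipokine receptors and their signalling genes, which respond to the products of Adipoq and Lep, 1 rose, the AMP kinase subunit Prkab2, by 0.41 (SE 0.12, adjusted p = 0.0496), and the methods' t-test called 0.

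The 3 C/EBP factors on that list, which take part in fat cell formation, differed among themselves, and they were singled out after their values were seen. Cebpa was at -0.07 (SE 0.19, adjusted p = 0.861) and Cebpb at 0.64 (SE 0.35, adjusted p = 0.293). Cebpd was at 1.87 (SE 0.62, adjusted p = 0.085), with 1623, 15431, 1248, 4404 and 1244 in WT mice 1-12M, 1-13M, 2-3M, 2-32M and 3-18M and 4431 to 21541 in the D257A mice. Without WT mouse 1-13M Cebpb was called higher at 0.97 (SE 0.25, adjusted p = 0.0177) and Cebpd at 2.48 (SE 0.43, adjusted p = 0.00166). Their part in the members' values was not tested.

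Markers of other cells in the muscle were set beside the members. Of 9 tested macrophage markers 4 rose, with and without WT mouse 1-13M: Lgals3 by 1.32 (SE 0.16, adjusted p = 0.000638), Mrc1 by 0.78 (SE 0.16, adjusted p = 0.00897), Cd163 by 0.97 (SE 0.23, adjusted p = 0.0209) and Lyz2 by 0.59 (SE 0.16, adjusted p = 0.042). The methods' t-test called 2 of the 9. The other 5 did not pass: Adgre1 at 0.33, Csf1r at 0.20, Cd14 at 0.09, Cd68 at 0.02 and Fcgr1 at -0.31. In the signal summed over 10 markers bright genes weigh most. This sum was 8653 to 12957 in the D257A group against 6790 to 7938 in the WT group, with no overlap. The median of the list was 0.33. Itgam, a defining marker, was below the level of the test. Of 12 tested endothelial markers 1 rose, Rbp7, a retinol binding protein of endothelium and fat, by 1.43 (SE 0.20, adjusted p = 0.00126), and 2 without WT mouse 1-13M and by the methods' t-test, with a median of -0.02. The summed endothelial signal overlapped, at 7572 to 8584 for D257A and 7112 to 8708 for WT muscle. The part of these cells in the values of Fabp4 and Retn was not tested.

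Of 9 tested markers of the progenitor and stromal cells of fat and muscle 4 fell, and 5 without WT mouse 1-13M, with a median of -0.48, and the methods' t-test called 2. The 4 were the stromal gene Pi16 at -2.40 (SE 0.31, adjusted p = 0.00081), the collagens Col1a1 at -2.87 (SE 0.72, adjusted p = 0.0282) and Col3a1 at -1.80 (SE 0.44, adjusted p = 0.0245), and Cd34 at -0.53 (SE 0.13, adjusted p = 0.0266). The size for Col1a1 is uncertain. Its signal ran from 8.22, below the level of the test, to 161 in D257A muscle, and was 107 in WT mouse 1-13M. The other 5 did not pass: Lum at -0.48, Dcn at -0.08, Dpp4 at -0.05, Pdgfra at -0.04 and Dlk1 at 0.29. Of these, Lum passed without WT mouse 1-13M. Pi16 and Col3a1 read 440 and 618 in WT mouse 1-13M, which lay in the WT range of Pi16 from 402 to 592 but, for Col3a1, far below the other WT mice at 2238 to 4645 and within the D257A range. For Col3a1 this mouse was thus on the D257A side, as it was for Lep, whereas for Retn it lay among the WT mice. The part of these cells in the members' values was not tested.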

How the data were processed

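RNA from gastrocnemius of 5 D257A and 5 WT mice, separate animals by the study's methods, was hybridized to Affymetrix Mouse Genome 430 2.0 arrays. The intensity values deposited by the authors are 1 linear signal per probe set and array, made with GCOS 1.3 per the submitters' processing notes. The algorithm behind the signal was not given in the sources read. One protocol line names cochlea, and the study's methods name both sexes; the tissue labels and the study's supporting file, which gives males, were followed. A target of 500 is stated, but the trimmed means of the deposited columns, with 2% of probe sets left out at each end, were 93.4 to 106 (D257A) and 94.5 to 129 (WT), so each array was multiplied to a trimmed mean of 500. The number of arrays limits the precision.

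The test on log2 signals was limma's (version 3.58.1, R 4.3.3; lmFit, eBayes with trend, no covariate) over the 22518 of 45037 non-control probe sets whose mean log2 signal was above the median, 6.26. Benjamini-Hochberg adjustment covered all of them, with calls at an adjusted p under 0.05. Exact permutation tests were 2-sided over mice, and permutation p-values of correlations used 100000 resamples. Tables and figures were made with pandas 2.3.3, NumPy 2.4.6, matplotlib 3.10.9 and SciPy 1.17.1 in Python 3.11.15, and the fit was tested on simulated data.

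Probe sets were named from the platform annotation, with symbols updated to RefSeq GRCm38.p6 (34958 with 1 symbol, 932 with several, 9211 without a name here). Each gene is given by the brightest of the probe sets naming only that gene. Named genes were the members, up to 4 called genes per list, Polg and the 10 genes nearest to Adipoq. The 8 genes between Polg and Plin1 were also to be named, and 0 were tested. Uncalled macrophage, stromal and further adipocyte markers were named after their values were seen. So were Dgat1, Gpd1, Gpam, Zfp423, Mgll, Plin5 and Prdm16. Others chosen in this way are said to be. The members and lists were chosen with earlier results of these data known. Alternatives were quantile normalization, median centring, no scaling, no filter, the 11259 brightest probe sets, no trend, array weights, an offset of 32, the methods' t-test, the mice numbered 2, the first digit of a mouse's number as covariate, other probe sets, and each mouse left out. The sources do not say what this digit means.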

Additional observations from a re-analysis of the deposited data

How the results depend on the processing

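Probe sets called numbered 1662, against 3968 with array weights, 562 with the mouse number's leading digit as a covariate and 1033 by the methods' t-test, and 890 to 3428 (without WT mouse 1-13M) with 1 mouse left out. Member genes called higher were 1, but 2 with array weights, with arrays centred on their median and among mice numbered 2, and 0 without a trend, with the digit as a covariate, without a filter and by the t-test. Member genes called lower were 0, but 2 with array weights. With 1 mouse left out these counts ran from 0 to 2 and from 0 to 1. The cause was not tested. Median centring moved the median of all genes from -0.01 to 0.12, and no member changed sign with the scaling.

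With 1 mouse left out, signs turned for Adipoq, from -0.18 (without WT mouse 1-13M) to 0.55 (without D257A mouse 2-27M), for Fabp4 over Adipoq, from -0.043 (without WT mouse 1-12M; -0.042 without D257A mouse 2-27M) to 0.54, and for Pnpla2 over Adipoq, from -1.06 to 0.12 (without WT mouse 1-13M). Retn lost its call under 11 of 23 alternatives. Lep and Lipe gained one under 2, Pparg under 1 and Fabp4 under 5, the unadjusted permutation test included. Plin1 or Cfd in place of Adipoq, and the median without Plin1, were not run, since neither gene had a probe set named here. Lep, Cidec, Pparg and Lipe lay outside the 11259 brightest probe sets, which gave them no value. No paired analysis was possible because the mouse numbers are not shared between the genotypes.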
